A study of Homo sapiens with 27 samples.

Results

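The genes described here are 34 genes of double-strand break repair by homologous recombination and of interstrand crosslink repair, chosen by gene symbol: BRCA1, BARD1 and BRCA2 with their partners, the end-resection and strand-exchange factors, the checkpoint kinases, and the Fanconi anaemia genes. Of 93530 transcripts listed in the RM82 count files, 352 carried one of these symbols, and the 34 genes stood among 18776 genes with at least 1 count. The genes were chosen with earlier results of these data known. The study tested unique molecular identifiers, the random tags that mark single RNA molecules before amplification, built from blocks of 3 equal bases so that errors in them can be corrected. Its RM82 experiment was sequenced on nanopore or Illumina platforms, and the libraries described here are long nanopore reads of full-length cDNA. The RM82 line derives from a Ewing sarcoma, a bone tumour driven by an EWSR1 fusion. One group of 3 libraries came from RM82 cells treated with SGC-CLK-1, an inhibitor of CDC-like kinases, which phosphorylate SR splicing factors. The other group of 3 libraries came from RM82 cells given DMSO, the solvent control. The paper states a treatment time of a day for both groups. All 6 libraries share this one line, no genetic change is stated for any of them, and the dose was not given in the sources used here. The study describes its experiments in general as independently replicated. The labels do not say whether the 3 libraries of a group came from separate cultures, so the p-values measure the spread between these libraries, which may be technical.

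Homologous recombination copies an intact sister chromatid to repair a broken one. The ends are first resected to single-stranded DNA, BRCA1 bound to BARD1 promotes this step and, through PALB2, the recruitment of BRCA2 for strand exchange, and ATM and ATR signal the damage to CHEK2 and CHEK1. The Fanconi core complex attaches ubiquitin to FANCD2 and FANCI at stalled forks, and the pathway is used mainly in S and G2 phase, when a sister chromatid is present.

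Library totals were 666702, 362826 and 373004 counts with SGC-CLK-1 and 416352, 523456 and 372876 with DMSO. Of the Ewing sarcoma markers examined, CD99, STEAP1, CCND1 and EZH2 passed the count filter, while the transcription factor NKX2-2 was at 0 in every library and NR0B1 held 1 to 6 counts per library. The 10 Ewing markers summed to 536, 323 and 349 counts with SGC-CLK-1 and to 464, 469 and 415 with DMSO. Scaled to a common library total with edgeR's TMM factors (CPM), their sums were 923, 1009 and 1059 CPM against 1299.5, 1067 and 1383 CPM, lower with SGC-CLK-1 by a small gap to DMSO replicate 2. CCND1, a cyclin and the most abundant of them, had 518, 566 and 552 CPM against 790, 598 and 850 CPM, with a log2 fold change of -0.45 ± 0.20 and an edgeR adjusted p of 0.323. CD99, STEAP1 and EZH2 overlapped, at -0.50, -0.30 and -0.06. Not every marker was lower: GLI1 had 7, 4 and 7 counts with SGC-CLK-1 and 0 in each DMSO library, too few to pass the filter, and LOX and NPY1R held 0 to 5 counts per library in overlapping groups. Without a count filter 4 of the markers were above 0 and 5 below, with a median log2 fold change of -0.05. The part of the marker differences in the repair genes' values was not tested. The markers of other types stayed near 0: 5 plasma cell genes summed to 5 counts in 1 library and 0 in the other 5, and of the blood genes PTPRC held 3 to 12 counts per library while CD3E and CD3D were at 0. Epithelial genes summed to 1 to 11 counts and endothelial genes to 0 to 3 counts per library.

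The first question was whether the summed transcripts of each repair gene differed between SGC-CLK-1 and DMSO. Of the 30 genes with enough counts to test, 10 were higher in every SGC-CLK-1 library than in any DMSO library: BRCA1, BARD1, EXO1, RAD54B, BLM, CHEK2, FANCA, FANCD2, PARP1 and MSH6. That was 33.3% of the tested members, against 10.0% of all genes tested. The gap between the groups was small for RAD54B, EXO1 and PARP1, among others. RAD51C and ATR were lower in every SGC-CLK-1 library, which was 6.67% against 9.71%. BRCA2, PALB2 and many others overlapped. No gene sum of the set passed the adjusted threshold. Together the 34 genes held 0.474%, 0.506% and 0.514% of the annotated counts in the SGC-CLK-1 libraries and 0.343%, 0.385% and 0.387% in the DMSO libraries.

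Gene sums were tested with edgeR's quasi-likelihood test over 6344 genes, with Benjamini-Hochberg adjustment over all of them. At an adjusted p under 0.05, 0 of 30 tested members were called, where 0.236% of all genes tested were called, 15 genes in all. At an unadjusted p under 0.05, 9 members were higher with SGC-CLK-1, which is 30.0% of those tested against 6.89% of all genes tested. In the other direction, 1 member was lower, against 6.97% of all genes. DESeq2 called BRCA1 and BARD1, with DESeq2 adjusted p of 0.0147 and 0.0121, where it called 1.69% of all genes tested. Groups that did not overlap were found for 10 members, or 33.3%, in the higher direction, against 10.0% of all genes. In the lower direction they were found for 2, or 6.67%, against 9.71%. The median log2 fold change of the tested members was 0.35, with 19 of 30 above 0, and that of all genes tested was -0.0012 with 49.9% above 0. Because a gene with low counts can pass the filter only through the group in which it is higher, these summaries describe the tested members and not all 34. The members were also chosen with earlier results of these data known. The contrast with all genes is thus a description and no test, and it can come in part from that choice. PALB2, RAD54B, EXO1, FANCM and TOPBP1 were the 5 tested members with under 10 counts in at least 1 library. Over the 25 members with 10 counts or more in every library the median was 0.36, against 0.02 over the 4353 genes that meet the same condition.

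The values of single genes are given as CPM, counts scaled to one common library total over tested genes with edgeR's TMM factors, and they serve to compare libraries for 1 gene, not genes with each other.

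**Figure D1:**
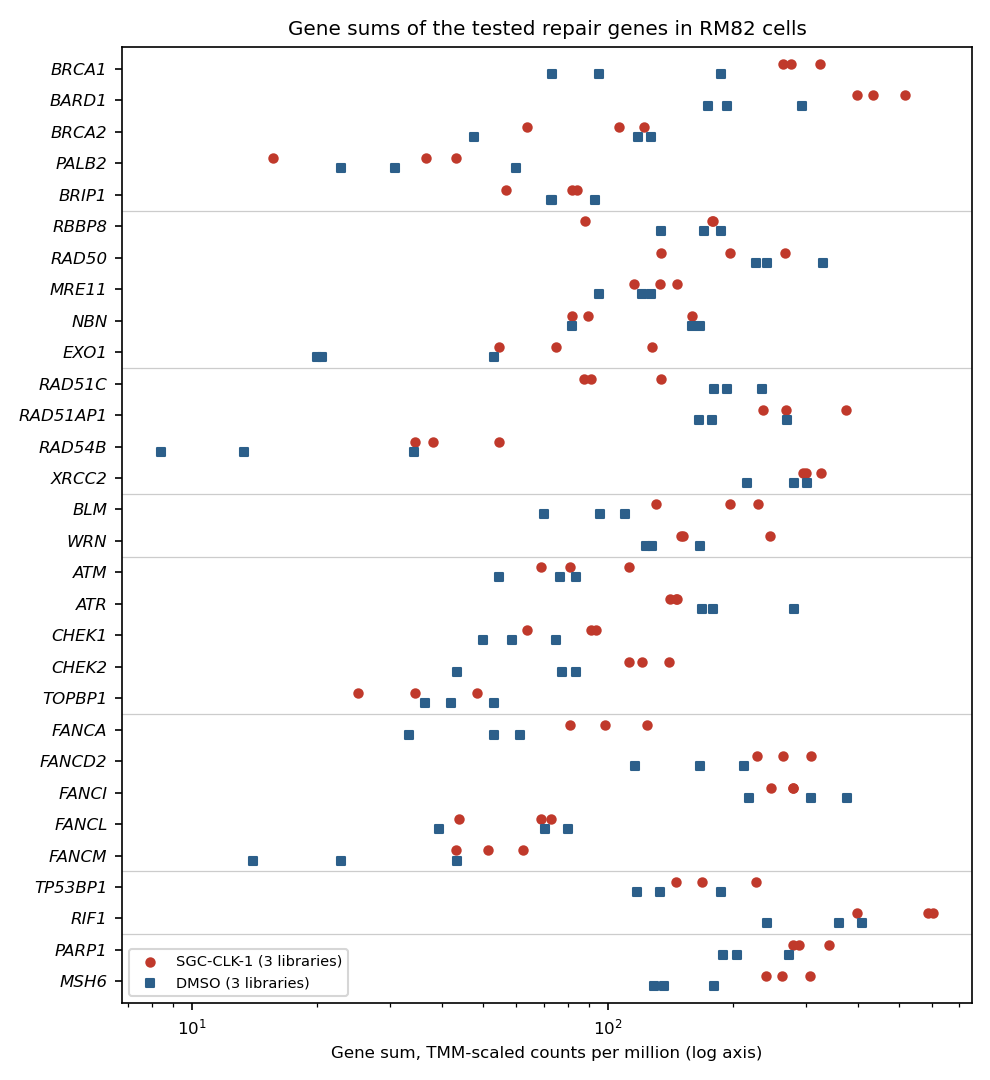
TMM-scaled CPM of each tested gene sum (horizontal log axis) in the 3 SGC-CLK-1 libraries (red circles) and the 3 DMSO libraries (blue squares), with the 30 tested genes grouped by role between grey lines. The 2 groups of points are apart for 12 genes, among them BRCA1, BARD1, BLM and MSH6 to the right with SGC-CLK-1 and RAD51C to the left, and they overlap for 18.

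BRCA1 (chr17:43044295-43170245, minus strand, GRCh38), a ubiquitin ligase subunit that directs resection and recombination, measured 324, 275 and 264 CPM with SGC-CLK-1 and 95.2, 187 and 73.3 CPM with DMSO. All 3 SGC-CLK-1 libraries were above all 3 DMSO libraries, among which replicate 2 stood highest. The means were 288 ± 31.8 and 118 ± 60.1 CPM (SD, n = 3), which gave a log2 fold change of 1.25 ± 0.30 (SE) with a 95% interval from 0.61 to 1.90 and an edgeR adjusted p of 0.0815. Without DMSO replicate 2 the log2 fold change was 1.76 and the edgeR adjusted p was 0.0360, while leaving out any other library gave log2 fold changes from 1.01 to 1.30 and edgeR adjusted p from 0.168 to 0.245.

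BARD1 (chr2:214725646-214809683, minus strand), the obligate partner that stabilises BRCA1, gave 434, 519 and 398 CPM with SGC-CLK-1 and 174, 293 and 193 CPM with DMSO. Again the groups did not overlap, and replicate 2 was again the highest of the DMSO libraries. Its means were 450 ± 62.1 and 220 ± 64.3 CPM (SD, n = 3), a 2.03-fold difference, with a log2 fold change of 1.02 ± 0.24 and an edgeR adjusted p of 0.0716. Without DMSO replicate 2 these were 1.29 and an edgeR adjusted p of 0.0446, and without any other library 0.87 to 1.08 and 0.134 to 0.288.

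BRCA2, which acts in strand exchange on single-stranded DNA, had overlapping groups. It measured 63.7, 122 and 106 CPM with SGC-CLK-1 and 47.6, 118 and 127 CPM with DMSO, so that each group held low and high libraries. The log2 fold change was -0.03 ± 0.38 with an interval from -0.83 to 0.77, so that a doubling lay outside it. PALB2, the bridge between BRCA1 and BRCA2, measured 43.1, 15.6 and 36.4 CPM with SGC-CLK-1 and 30.8, 22.8 and 60.0 CPM with DMSO on 5 to 25 counts per library. The groups overlapped, and the interval of its log2 fold change, from -1.29 to 0.94, does not leave out a 2-fold lower level, so that a difference was not detectable at this depth. The helicase BRIP1, which binds BRCA1, had a log2 fold change of -0.13 with an interval from -0.81 to 0.54.

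**Figure D2:**
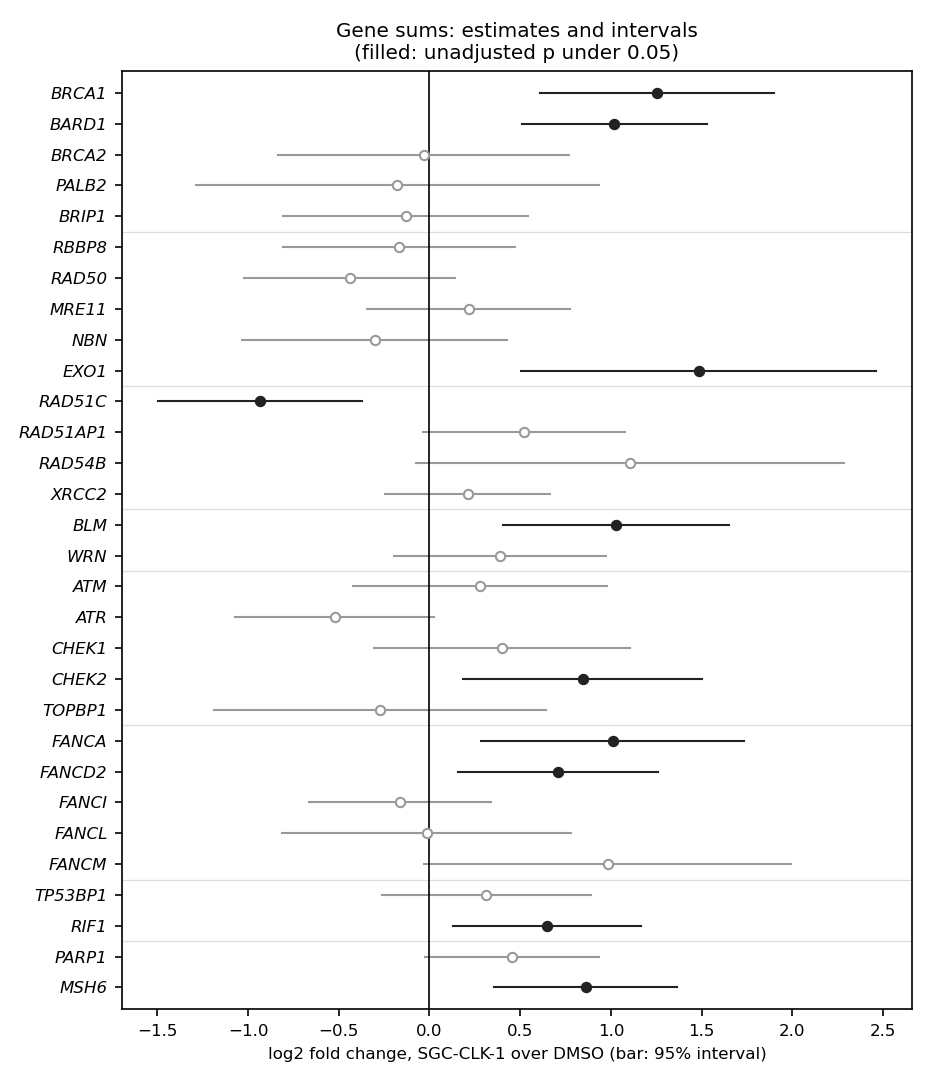
Log2 fold change of the gene sum, SGC-CLK-1 over DMSO (horizontal axis; points are edgeR estimates, bars are 95% intervals), for the 30 tested genes in the same order, with filled points for an unadjusted p under 0.05. BRCA1 at 1.25 and EXO1 at 1.48 lie to the right of 0, RAD51C at -0.93 to the left, and BRCA2 at -0.03 on the line.

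Among the genes that process DNA ends, EXO1 was the one that differed at the unadjusted level. EXO1, the nuclease of long-range resection, measured 127, 75.0 and 54.6 CPM with SGC-CLK-1 and 53.2, 20.5 and 20.0 CPM with DMSO. The lowest SGC-CLK-1 library barely exceeded the highest DMSO library. Its log2 fold change was 1.48 ± 0.46, a 2.80-fold difference on 6 to 74 counts per library, with an edgeR adjusted p of 0.145. With 19, 9 and 6 DMSO counts it passed the filter through the SGC-CLK-1 libraries, in which it was higher. Single libraries moved this value: the log2 fold change was 2.09, or 4.26-fold, without DMSO replicate 1, and 1.03 with an unadjusted edgeR p of 0.0739 without SGC-CLK-1 replicate 1. The MRN complex, which senses and first trims the ends, showed no difference that could be resolved at this depth. The log2 fold changes were 0.22 for the nuclease MRE11, -0.44 for RAD50 and -0.30 for NBN, and each of these genes had overlapping groups. RBBP8, which encodes the MRN cofactor CtIP, was at -0.17.

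RAD51C, which assists strand exchange, stood on the other side of 0. It gave 134, 87.5 and 91.0 CPM with SGC-CLK-1 and 235, 193 and 180 CPM with DMSO, and every SGC-CLK-1 library was below every DMSO library. The means of 104 ± 26.1 and 203 ± 28.9 CPM (SD, n = 3) gave a log2 fold change of -0.93 ± 0.26 with an edgeR adjusted p of 0.122. The paralog XRCC2 had a log2 fold change of 0.21 with an interval from -0.25 to 0.67. RAD51AP1, which stimulates strand invasion, was at 0.52 with an edgeR adjusted p of 0.394, and the translocase RAD54B at 1.11 with an interval from -0.07 to 2.29. The RAD54B groups were apart by a small gap, 34.4 CPM in the lowest SGC-CLK-1 library against 34.1 CPM in the highest DMSO library. With 3, 15 and 4 DMSO counts RAD54B passed the filter through the SGC-CLK-1 libraries, in which it was higher.

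The RecQ helicases unwind recombination intermediates. BLM, which dissolves double Holliday junctions, measured 229, 197 and 130 CPM with SGC-CLK-1 and 70.0, 95.6 and 110 CPM with DMSO, without overlap. Its means were 185 ± 50.3 and 91.8 ± 20.2 CPM (SD, n = 3) and its log2 fold change was 1.03 ± 0.29 with an edgeR adjusted p of 0.122. WRN, the Werner syndrome helicase, had a log2 fold change of 0.39 with overlapping groups, and its isoforms are described below.

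Of the checkpoint genes, the kinase CHEK2 measured 121, 141 and 112 CPM with SGC-CLK-1 and 84.0, 77.4 and 43.3 CPM with DMSO. Its groups did not overlap, and the log2 fold change was 0.84 ± 0.31 with an edgeR adjusted p of 0.224. Its unadjusted edgeR p was 0.0549 when SGC-CLK-1 replicate 2 was left out, and 0.0632 when it was DMSO replicate 3. ATR, the kinase activated by single-stranded DNA, lay at 141, 147 and 146 CPM with SGC-CLK-1 and 179, 168 and 280 CPM with DMSO. ATR was thus lower in all 3 SGC-CLK-1 libraries, with a log2 fold change of -0.52 ± 0.26 and an edgeR adjusted p of 0.390. The kinases ATM and CHEK1 were at 0.28 and 0.40, and the ATR activator TOPBP1 at -0.27, all with overlapping groups.

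In the Fanconi group, FANCA, a core complex subunit, measured 98.2, 81.2 and 124 CPM with SGC-CLK-1 and 53.2, 61.4 and 33.3 CPM with DMSO. No DMSO library reached the SGC-CLK-1 range, and the log2 fold change was 1.01 ± 0.34 with an edgeR adjusted p of 0.186. FANCD2, the ubiquitinated effector, gave 308, 228 and 264 CPM with SGC-CLK-1 and 213, 116 and 167 CPM with DMSO. These groups were also apart, by a small gap, with a log2 fold change of 0.71 ± 0.26 and an edgeR adjusted p of 0.224. The unadjusted edgeR p was above 0.05 without SGC-CLK-1 replicate 1, at 0.0778, and without DMSO replicate 2, at 0.0816. FANCI, the partner of FANCD2, measured 246, 278 and 279 CPM with SGC-CLK-1 and 308, 218 and 376 CPM with DMSO, and its log2 fold change of -0.16 had an interval from -0.66 to 0.34. FANCL, the ubiquitin ligase of the core complex, was at -0.02, and the translocase FANCM at 0.98 with an interval from -0.03 to 1.99.

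MSH6, a mismatch-recognition protein, measured 239, 262 and 307 CPM with SGC-CLK-1 and 129, 137 and 180 CPM with DMSO, without overlap. Its log2 fold change was 0.86 ± 0.24 with an edgeR adjusted p of 0.120. RIF1, which protects ends from resection, gave 396, 606 and 589 CPM with SGC-CLK-1 and 241, 407 and 360 CPM with DMSO. The groups of RIF1 touched, since DMSO replicate 2 exceeded SGC-CLK-1 replicate 1, and the log2 fold change was 0.65 ± 0.24 with an edgeR adjusted p of 0.241. Without SGC-CLK-1 replicate 2 or 3 or DMSO replicate 1, the unadjusted edgeR p of RIF1 was 0.0630 to 0.103. TP53BP1, which recruits RIF1, was at 0.31, and PARP1, the sensor of single-strand breaks, at 0.46 with an edgeR adjusted p of 0.390 although its groups did not overlap.

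Some members were too low to judge. ATRIP, the partner of ATR, had 17, 7 and 1 counts with SGC-CLK-1 and 0, 3 and 4 with DMSO. The core complex gene FANCB had 6, 11 and 4 counts against 4, 14 and 7, and FANCG had 7, 2 and 0 against 2, 4 and 0. MDC1, the adaptor that binds phosphorylated H2AX, had 3, 4 and 1 counts against 0, 2 and 0. These 4 genes did not pass the count filter of edgeR's filterByExpr and were not tested. Another 3, PALB2, RAD54B and FANCM, passed it but their 95% intervals reached more than 1 log2 unit from the estimate. That left 27 genes with a usable estimate. Of the 20 tested members with an unadjusted p of 0.05 or more, 11 had intervals lying wholly between -1 and 1, so that a 2-fold difference was outside their interval, and for the remaining ones it was not.

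The promoters of the members were read because several genes were higher together. RefSeq promoter windows of 300 bases, from 250 before to 50 after the transcription start on GRCh38.p14, were at hand for 30 of the 34 members. They were searched on both strands for the core letters of the motif of E2F, the transcription factor family of S-phase genes: TTCCCGC, its relative TTCGCGC, the variant TTGCCGC and the variant TTGGCGC. The motif was chosen after the values had been seen, and a match is a description of letters and no evidence of binding. One of these cores occurred in 13.0% of all 35116 windows, in 26.9% of tested genes with a window, and in 15 of 30 members. A gene counted when any of its windows held a core, so more windows gave more chances of a match. MSH6 had 4 windows, CHEK1 had 3, and BRCA1 and EXO1, among others, had 2. Among the 9 members higher at the unadjusted level 7 had a core, all but CHEK2 and RIF1. Among the 16 other tested members with a window and an unadjusted p of 0.05 or more it was 6. RAD51C had none. The 7 windows are given as the 29 bases around the core nearest the start, 5′ to 3′ on the strand of the gene, with the core, or its reverse complement, in capitals.
BRCA1 (chr17:43125394-43125422): aacggaaaagcGCGGGAAttacagataaa
BARD1 (chr2:214809662-214809690): ccgtcccagacGCGGGAAgagcttggccg
MSH6 (chr2:47783138-47783166): tccccccagatTTCCCGCcagcaggagcc
BLM (chr15:90717338-90717366): gcaagcttccgGCGGGAAgtgagccaggg
EXO1 (chr1:241848198-241848226): aaggtcagcctTTCGCGCgctgtgtaggc
FANCA (chr16:89816609-89816637): cggggctgtagGCGCCAAggccatgtccg
FANCD2 (chr3:10026424-10026452): cgtcgggcctgGCGGGAAagtcgaaaact
The same GCGGGAA form stood in the BRCA1, BARD1, BLM and FANCD2 sequences, while MSH6 carried its reverse complement. The core began 47 bases before the start in BRCA1, 2 bases before it in FANCD2, and between bases 4 and 22 of the transcript in the other 5. The core was also found in PARP1, FANCL, TOPBP1, MDC1, XRCC2, FANCG, RAD51AP1 and BRIP1.

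The second question was which transcripts carried the counts. The 352 listed transcripts comprised 180 annotated as protein coding, 73 as targets of nonsense-mediated decay, 63 with a retained intron and 36 without a defined coding sequence. Of these, 219 had under 15 counts over the 6 libraries together, and 46 transcripts of 20 genes passed the filter. At an adjusted p under 0.05, 4 of these 46 were called, 3 higher and 1 lower, where 3.95% of 7840 transcripts tested were called. At an unadjusted p under 0.05, 19 were higher, against 8.93% of all transcripts, and 1 was lower, against 9.11%. The median log2 fold change of the 46 was 0.50 with 31 above 0, against 49.5% above 0 over all transcripts tested. In 20 of them the groups did not overlap in the higher direction and in 1 in the lower, against 11.7% and 11.2% of all transcripts. A transcript with low counts can pass the filter only through the group in which it is higher. These summaries thus describe the 46 tested transcripts and not all 352. The choice of members with earlier results known limits the contrast with all transcripts as it does for gene sums. The 46 are not independent, since they belong to 20 genes and a molecule that aligns to several of them can be counted on each. In XRCC2, the protein-coding transcript ENST00000359321 (XRCC2-201) had 95, 48, 50, 39, 63 and 39 counts in SGC-CLK-1 replicates 1 to 3 and DMSO replicates 1 to 3, and the transcript without a coding sequence, ENST00000495707 (XRCC2-202), had 94, 48, 47, 38, 69 and 45. Both sets of counts nearly repeat each other library by library, and the gene sum holds both.

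BARD1 transcript ENST00000260947 (BARD1-201), the full-length form of 11 exons and 5478 bases, held most of the BARD1 counts. It had 196, 125 and 108 counts with SGC-CLK-1 and 41, 82 and 47 with DMSO, or 427, 497 and 420 against 141, 227 and 181 CPM. The SGC-CLK-1 libraries all lay far above the DMSO libraries, and the log2 fold change of 1.28 ± 0.22 had an edgeR adjusted p of 0.00101. It was called under each of the 12 alternatives tried, with log2 fold changes from 1.13 to 1.47.

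FANCD2 transcript ENST00000287647 (FANCD2-201) had 52, 23 and 24 counts with SGC-CLK-1 and 16, 16 and 11 with DMSO, or 113, 91.4 and 93.4 against 55.1, 44.3 and 42.4 CPM. Its groups were well apart, with a log2 fold change of 1.09 ± 0.29 and an edgeR adjusted p of 0.0305. Leaving out any 1 of the 6 libraries ended this call, with edgeR adjusted p from 0.0615 to 0.121. The transcript ENST00000419585 (FANCD2-202), which splices on to a further exon, was at 0.74 ± 0.27 with an edgeR adjusted p of 0.123. Both share an exon starting at chr3:10098720. ENST00000287647 reads through its 5′ splice site for 845 more bases and ends at 10099660, whereas ENST00000419585 leaves it at 10098815 and rejoins at 10101188 after an intron of 2372 bases. The sites at which the isoforms part are shown on the plus strand of GRCh38, with the first 6 intron bases of the 5′ site and the terminal AG of the 3′ site in capitals.
FANCD2 5′ site (chr3:10098804-10098827): aaagccactgagGTATCTctacaa
FANCD2 3′ site (chr3:10101170-10101197): ttattctttgccccttAGgatggtgaag
The share of FANCD2 counts on ENST00000287647 was 29.1%, 31.5% and 27.6% with SGC-CLK-1 and 21.1%, 31.4% and 22.0% with DMSO. These shares overlapped through DMSO replicate 2, so the higher level of this transcript was not accompanied by a resolved change in its use.

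RAD51C transcript ENST00000337432 (RAD51C-201), the full-length form of 9 exons, had 48, 25 and 21 counts with SGC-CLK-1 and 60, 60 and 39 with DMSO. Scaled, these were 105, 99.3 and 81.7 against 207, 166 and 150 CPM, lower in all 3 SGC-CLK-1 libraries. It fell by 0.86 ± 0.25 on the log2 scale with an edgeR adjusted p of 0.0444, and it passed the threshold in 3 of 12 alternatives. Only the fit without DMSO replicate 3 kept the call among those that left out 1 library, the other 5 giving edgeR adjusted p from 0.0529 to 0.226.

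**Figure D3:**
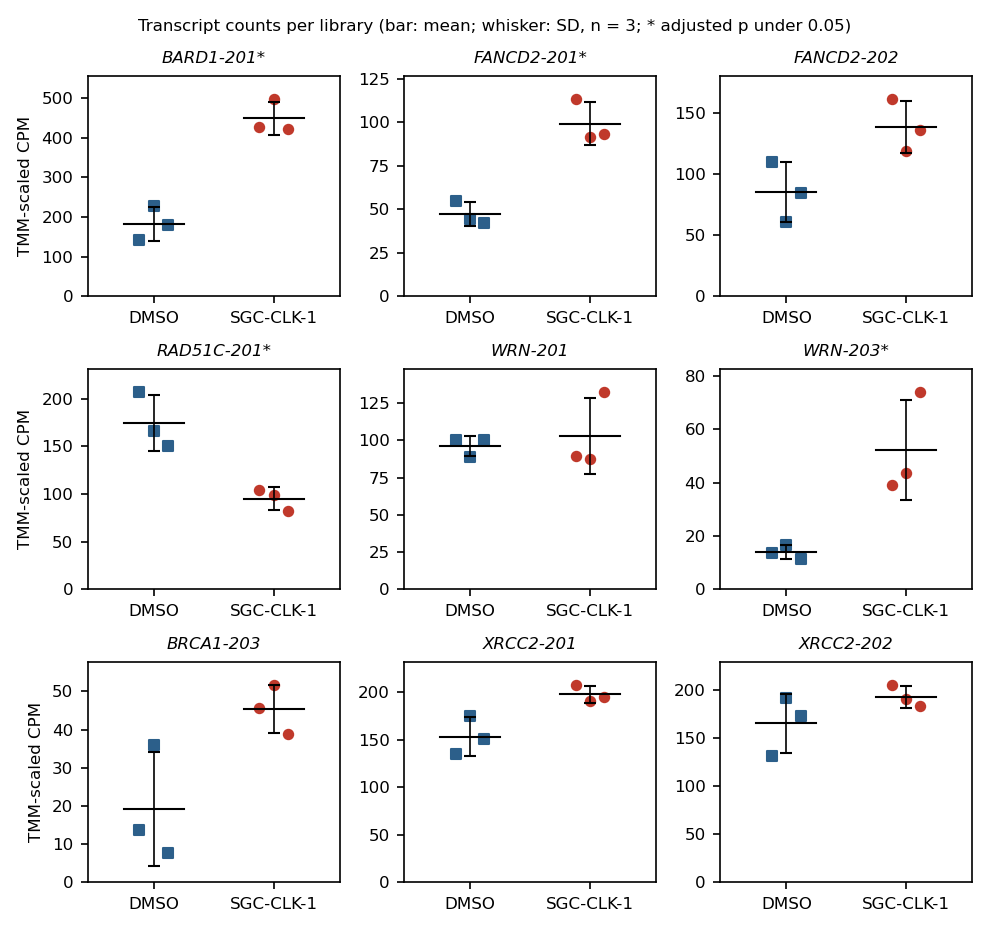
TMM-scaled CPM (vertical axes, each from 0) of 9 transcripts in the DMSO (blue squares) and SGC-CLK-1 (red circles) libraries, with mean and SD (n = 3) and an asterisk for an adjusted p under 0.05. BARD1-201, FANCD2-201 and WRN-203 are higher with SGC-CLK-1 and RAD51C-201 is lower, while WRN-201 and XRCC2-202 overlap.

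WRN was the member with the smallest usage p. The retained-intron transcript ENST00000521620 (WRN-203) had 18, 11 and 19 counts with SGC-CLK-1 and 4, 6 and 3 with DMSO, so that it passed the filter through the SGC-CLK-1 libraries. It rose by 1.80 ± 0.45 on the log2 scale with an edgeR adjusted p of 0.0218. The call was lost without SGC-CLK-1 replicate 2 or 3 and without DMSO replicate 1 or 3, with edgeR adjusted p from 0.0624 to 0.171. The protein-coding transcript ENST00000298139 (WRN-201) had 41, 22 and 34 counts against 29, 32 and 26, and its log2 fold change of 0.08 had an interval from -0.46 to 0.63. Counts on WRN transcripts not annotated as protein coding made up 53.4%, 54.2% and 58.0% of the gene with SGC-CLK-1 and 31.8%, 42.9% and 36.0% with DMSO, and the groups did not overlap.

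Transcript usage, the change of each transcript relative to its gene, was tested with edgeR's diffSpliceDGE and a Simes test per gene. None of the 13 members with 2 or more tested transcripts was called at an adjusted p under 0.05, where 0.277% of 1805 genes were called, and none was with a gene-level F test. WRN was the 1 member with an unadjusted p under 0.05, against 1.72% of all genes, and its edgeR adjusted p was 1.00. This p of 0.0176 rests on WRN-203 with its few DMSO counts: among transcripts with 10 counts or more in every library the usage p of WRN was 0.440, and it was 0.0556 without SGC-CLK-1 replicate 3 and 0.0928 without DMSO replicate 3. BRCA1 spread its counts over 26 transcripts, of which the full-length forms ENST00000357654 (BRCA1-203) and ENST00000471181 were the 2 tested. They had 21, 13 and 10 and 26, 11 and 12 counts with SGC-CLK-1, and 4, 13 and 2 and 4, 15 and 1 with DMSO. Both passed the filter through the SGC-CLK-1 libraries, and their log2 fold changes of 1.13 and 1.20 did not pass the adjusted threshold. Their counts nearly repeat each other library by library, and a molecule that aligns to both can be counted on each. The 2 fold changes are thus not separate observations, and the 26 listed transcripts need not be separate isoforms in these cells.

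The counts of ATR lay mostly on partial transcripts. Those not annotated as protein coding held 92.7%, 87.2% and 95.8% of its counts with SGC-CLK-1 and 85.9%, 97.3% and 90.5% with DMSO. Most of them were on the retained-intron transcripts ENST00000657914 and ENST00000659195, which hold 7 and 11 exons and lie inside the gene at chr3:142555898-142565759 and chr3:142549580-142565466. The ATR gene sum thus rests mainly on them, and no full-length ATR transcript passed the filter.

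Summed over the 34 genes, 26.9%, 25.0% and 25.6% of counts with SGC-CLK-1 and 29.9%, 29.3% and 30.6% with DMSO fell on transcripts not annotated as protein coding. The difference was -4.10 percentage points and the groups did not overlap. Much of it lay in the mix of genes: ATR, whose own share of 91.9% against 91.2% hardly differed, made up 2.75% of the members' counts with SGC-CLK-1 and 5.04% with DMSO on average, and RAD50, at 48.7% against 48.4%, 3.77% and 6.48%. With each gene's weight held at its mean over the 6 libraries, for the 31 genes with a count in every library, the difference was -1.74 points, and with each gene's share held instead it was -2.30. Over all genes the pooled share was 24.4%, 24.3% and 24.2% with SGC-CLK-1 and 23.7%, 23.9% and 23.6% with DMSO, a difference of 0.59 in the other direction. The members' share was not tested. Among the 23 members with counts of both kinds and 10 counts or more in every library, BRCA1, CHEK1, FANCA and TP53BP1 had a lower share in every SGC-CLK-1 library and WRN had a higher one. That is 4 lower and 1 higher, where 5.91% and 6.82% of the 3637 genes that meet the same condition did so. For BRCA1 it was 22.3%, 20.5% and 25.3% against 29.4%, 30.5% and 45.5%, and for FANCA 42.1%, 46.2% and 41.5% against 57.9%, 51.9% and 60.0%. For CHEK1, with 15 to 37 counts per library, it was 2.70%, 10.0% and 10.0% against 23.8%, 15.2% and 26.7%.

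**Figure D4:**
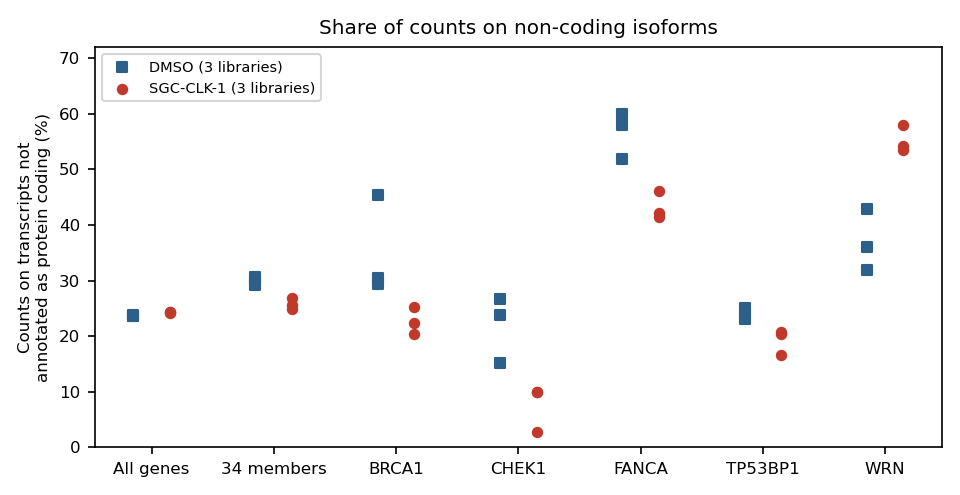
Percentage of counts on transcripts not annotated as protein coding (vertical axis) in each DMSO (blue squares) and SGC-CLK-1 (red circles) library, for all genes, for the 34 members together and for the 5 members whose groups do not overlap. WRN is higher with SGC-CLK-1, at 53.4% to 58.0%, and BRCA1, CHEK1, FANCA and TP53BP1 are lower.

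The rest of the pathway was read from a list of 74 partner genes, of which 54 passed the filter. This list was also chosen with earlier results of these data known. None was called at the adjusted threshold with edgeR, where 0.236% of all genes were. At an unadjusted p under 0.05, 6 were higher and 2 lower, against 6.89% and 6.97% of all genes, and the median log2 fold change was 0.23 with 36 above 0. DESeq2 called 2 of them, POLQ included, and 1.69% of all genes. POLQ, the polymerase of microhomology-mediated end joining, measured 58.6, 81.2 and 97.1 against 16.8, 27.3 and 20.0 CPM, a log2 fold change of 1.83 ± 0.41 with an edgeR adjusted p of 0.0615. The resection nuclease DNA2 followed at 1.53 ± 0.47, on 6 to 34 counts per library. POLQ, with 6, 12 and 6 DMSO counts, and DNA2, with 6, 7 and 9, passed the filter through the SGC-CLK-1 libraries, in which they were higher. In the other direction stood FAAP24, which binds FANCM, at -1.38 ± 0.46 with an edgeR adjusted p of 0.182, and UBE2T, the ubiquitin-conjugating enzyme for FANCD2, at -0.74 ± 0.25 with an edgeR adjusted p of 0.186. FAAP24 had 11, 5 and 11 counts with SGC-CLK-1 and passed the filter through the DMSO libraries, and its unadjusted edgeR p was 0.0664 without DMSO replicate 1. Both genes were lower in all 3 SGC-CLK-1 libraries, while the checkpoint clamp subunit RAD1, next in order, was at -0.42 with overlapping groups.

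Genes of the S and G2/M phases were read beside the members, because they could move with them. Their lists, too, were chosen with earlier results of these data known. Of 25 S-phase genes 20 were tested, 18 were above 0 and 11 were higher at an unadjusted p under 0.05, with a median log2 fold change of 0.71. Their summed level was 3759, 3725 and 3851 CPM with SGC-CLK-1 and 2602, 2557 and 2459 CPM with DMSO. RRM2 held the most counts of the list over the 6 libraries together. MCM4 held more counts than RRM2 in SGC-CLK-1 replicates 1 and 3, but not in replicate 2, with 181 against 192. No gene of the list was at 0 in all libraries. MCM3 and MCM5, subunits of the replicative helicase, had log2 fold changes of 1.53 ± 0.30 and 1.60 ± 0.40, with edgeR adjusted p of 0.0507 and 0.0897. Of 20 G2/M genes 18 were tested, 4 were above 0, and 9 were lower and 1 higher at an unadjusted p under 0.05, with a median of -0.52. The G2/M genes summed to 3945, 3975 and 4239.7 CPM with SGC-CLK-1 and 5856, 6794 and 6497 CPM with DMSO. CENPF held the most counts of these genes over the 6 libraries together. The kinase PLK1 and the kinetochore gene CENPF were at -1.28 ± 0.27 and -1.04 ± 0.22, each with an edgeR adjusted p of 0.0539. Of 8 genes of end joining, the repair route that does not copy a sister, 6 were tested, 5 were above 0 and 2 were higher at the unadjusted level, PRKDC at 0.72 and DCLRE1C at 0.39, the latter no longer so in 5 of the 6 fits that left out 1 library, all but that without DMSO replicate 2. The E2F core described above occurred in 17 of 20 S-phase genes and 2 of 15 G2/M genes with a promoter window, and in 30 of 61 partners. In bulk RNA, more cells in one phase and more RNA per cell cannot be told apart, and the part of the cell cycle phases in the members' values was not tested.

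**Figure D5:**
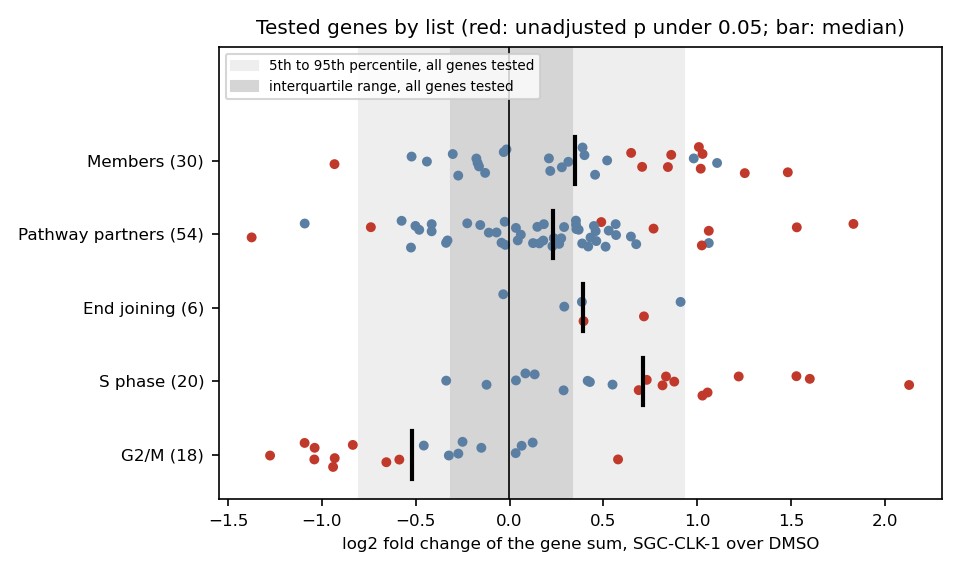
Log2 fold change of each tested gene sum (horizontal axis), SGC-CLK-1 over DMSO, for the members, the pathway partners and 3 context lists, with numbers of tested genes in parentheses, red points for an unadjusted p under 0.05, black bars for medians and grey bands for all 6344 genes tested. Medians lie at 0.35 for the members, 0.23 for the partners, 0.71 for S phase and -0.52 for G2/M.

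Another feature of the libraries also differed between the groups. The share of counts on mitochondrially encoded genes was 0.723%, 0.534% and 0.517% with SGC-CLK-1 and 0.883%, 0.757% and 0.858% with DMSO. These shares did not overlap, and their part in the members' values was not tested. The share of annotated counts on retained-intron transcripts of all genes was 9.44%, 9.47% and 9.41% against 9.31%, 9.50% and 9.23%, and it overlapped through DMSO replicate 2.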

How the data were processed

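RM82 libraries were read on a PromethION (R9.4.1 flow cells), basecalled with Guppy and aligned by the authors with minimap2 to the hg38 Ensembl 98 transcriptome, with up to 3 secondary alignments reported per read; the submitters' processing notes name minimap2 2.22. The deposited files hold whole-number counts per transcript, made by the authors by collapsing unique molecular identifiers. Which collapsing method made these files is not given in the sources used here. The 3 SGC-CLK-1 and 3 DMSO libraries held 362826 to 666702 counts, which limits genes with few counts. Transcript identifiers without version were matched to GENCODE 44 on the same genome; 86362 of 93530 matched, 92.4% of them with the same version. The rest were left out of gene sums.

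Counts were summed to genes and tested with edgeR 4.0.16 (R 4.3.3): filterByExpr (minimum count 10, minimum total 15), TMM, quasi-likelihood test, Benjamini-Hochberg adjustment over all features, threshold 0.05. DESeq2 1.42.0 was an alternative. The fits were also run on simulated counts, whose outcome is not reported here. These had the same spread for all features and no molecule counted on several transcripts, so they were simpler than the data. Named were BRCA1, BARD1, BRCA2 and PALB2, members with an unadjusted p under 0.05, transcripts called, the 3 partners with the smallest p in each direction and the 2 in each context list. Members and lists were chosen with earlier results of these data known. Some genes of the partner list are not reported here. Other cell lines were not used here.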

Additional observations from a re-analysis of the deposited data

How the results depend on the processing

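No member gene sum passed the adjusted threshold in the reported fit or with library size scaling, DESeq2 size factors and protein-coding transcripts only. The count was 3 without a count filter (BRCA1, BARD1, EXO1), 2 with 10 counts in every library and 2 with DESeq2 (BRCA1 and BARD1 in both), and 2 with the most abundant transcript per gene (BARD1, RAD51C). Calls among all genes rose too, from 15 of 6344 to 169 of 18776 without a filter, 64 of 4353 with 10 counts in every library, 107 of 6344 with DESeq2 and 148 of 3689 with the most abundant transcript. Leaving out 1 library gave 0 to 2 member gene sums, 2 without DMSO replicate 2, and 1 to 2 lower at the unadjusted level. The 9 members higher at the unadjusted level were 7 to 13 over the alternatives: 13 with library size scaling, where all genes higher went from 437 to 559 of 6344, and 7 without SGC-CLK-1 replicate 2, where they were 342 of 6996, and with the most abundant transcript, where they were 323 of 3689. Member transcripts called went from 4 to 1 without a filter and to 1 with DESeq2, which gave no adjusted p for the FANCD2 and WRN transcripts, and ranged from 1 to 5 when 1 library was left out. Over all transcripts the calls went from 310 of 7840 to 162 of 93530 without a filter, 113 of 7840 with DESeq2, and 81 to 363 when 1 library was left out. Partner genes called were 1 with library size scaling, 2 without a filter, 1 with 10 counts in every library, 1 with the most abundant transcript and 2 with DESeq2. The difference in the share of counts on transcripts not annotated as protein coding was -2.15 percentage points for retained-intron transcripts alone and -1.74 with the gene weights fixed, a setting chosen after seeing the data. BRCA2 was above 0 with library size scaling (0.054), with 10 counts in every library (0.020) and with the most abundant transcript (0.074), and from -0.37 to 0.22 when 1 library was left out. PALB2 was at 0.0036 with protein-coding transcripts only and from -0.51 to 0.28 when 1 library was left out. The cause of these changes was not tested. With the replicate number as a block, 1 member gene sum, BARD1, was called, BRCA2 was at 0.051, and the number of genes called among all tested went from 15 to 36. Deviations of same-numbered libraries correlated at 0.064, 0.024 and 0.031 over genes, and those of differently numbered libraries at -0.074 to 0.036. The labels do not state a pairing, and the numbers were not taken as pairs. These correlations alone do not settle whether they are. Genes with few counts are limited by depth, and molecules that align to several transcripts can count more than once in a gene sum.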
